A study of Mus musculus with 4 samples.

Results

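The genes described here are 10 markers of brain mural cells, the pericytes and vascular smooth muscle cells that wrap blood vessels. They were all non-control probes whose gene name in the scanner files was Pdgfrb, Rgs5, Cspg4, Anpep, Vtn, Kcnj8, Abcc9, Acta2, Tagln or Myh11. That gave 19 probes of 56605 on the array, and 17 of the 19 were well above background on all 4 arrays. All 10 genes kept at least 1 such probe, among 20655 genes that did. The first 7 genes are listed here as pericyte members and the last 3 as smooth muscle members, although mural cells of both kinds share part of the set.

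The tissue was prefrontal cortex of B6J mice aged 3 months. One group was wild-type and ate a starch diet, which the study used as its control. A second group was wild-type and ate a sucrose diet. The other groups were heterozygous for Glo1, which encodes the methylglyoxal-detoxifying enzyme glyoxalase 1, and ate starch or sucrose. Each diet ran for about 70 days from postnatal day 21. RNA of 3 mice was pooled in each group, and 200 ng of it was Cy3-labelled and put on 1 one-colour array. There were therefore 4 arrays, 1 per group, and no replicates, so no difference between single arrays has a p-value or a biological error. All arrays lay on 1 slide, so the position on the slide cannot be told apart from the group. The labels give neither the kind of Glo1 allele nor the sex of the mice.

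Pericytes sit in the basement membrane of capillaries, and endothelial cells recruit and keep them by secreting a platelet-derived growth factor that acts on the receptor PDGFRB. Smooth muscle cells form a contractile layer around arteries and arterioles and set vessel diameter. Their contractile genes are driven by serum response factor with its coactivator myocardin, which act through a promoter element called the CArG box. In bulk tissue RNA, fewer cells of a type and less RNA per cell cannot be told apart.

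Levels below are processed signals as multiples of the array's 75th percentile, and changes are log2 differences of them. A gene's value is that of its brightest probe, and levels of different probes are not compared. Of the non-control spots, 77.6% to 80.2% were well above background, and the 75th percentile lay between 1780 and 1929 intensity units. Glo1 was lower in heterozygous than in wild-type mice by a log2 change of -0.56 on starch and -0.86 on sucrose, in the direction of the labels. All 10 of the 10 cortical excitatory neuron markers were well above background on all arrays. Markers of other tissue differed between arrays. The summed level of 11 measured choroid plexus genes, of 12 listed, was 74.0 on the heterozygous sucrose array and 1.33 to 2.61 on the others. That of 11 measured striatal genes, of 12 listed, ranged from 29.5 to 55.9. That of 6 blood genes was 277 and 235 on the starch arrays and 135 and 152 on the sucrose arrays.

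None of the 10 markers changed 2-fold between any pair of arrays compared. Their spans, the highest minus the lowest array on the log2 scale, ran from 0.06 for Rgs5 to 0.39 for Pdgfrb, with a median of 0.19. Over all 20655 genes the median span was 0.27, with quartiles of 0.17 and 0.44, and 4.16% of genes spanned 1 or more. Bright probes have smaller spans, so the members were also read within quartiles of signal. Among the brightest quartile of probes, where the median span of genes was 0.19, Rgs5 and Vtn lay below it and Acta2 and Tagln above it. In the quartile below that, with a median of 0.25, Cspg4 and Kcnj8 lay below and Pdgfrb, Anpep and Abcc9 above. Myh11, in the next, lay below a median of 0.36. The smallest differences can be set against technical scatter. Probes printed in repeat on these arrays gave an SD of 0.07 for a difference of 2 single spots in the brightest quartile (291 probes), and 0.12 (5 probes) and 0.13 (3 probes) in the next ones down. These SDs come from the scatter of spots within an array, so they leave out labelling and hybridization differences between arrays. The scanner software's own error model was wider, at 10% to 16.5% of the signal of a measured member probe, which gives a median error of 0.20 for a log2 difference. None of the 50 changes of the 10 genes over 5 pairs of arrays passed 2 such errors, where 7.36% to 12.5% of all genes did. In the brightest quartile, where the repeat-spot SD rests on most probes, 0 to 2 of the 4 members (Rgs5, Vtn, Acta2 and Tagln) passed 2 of these SDs in a comparison, where 26.5% to 43.5% of the 7746 genes did. The members that passed were Acta2 and Tagln.

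**Figure D1:**
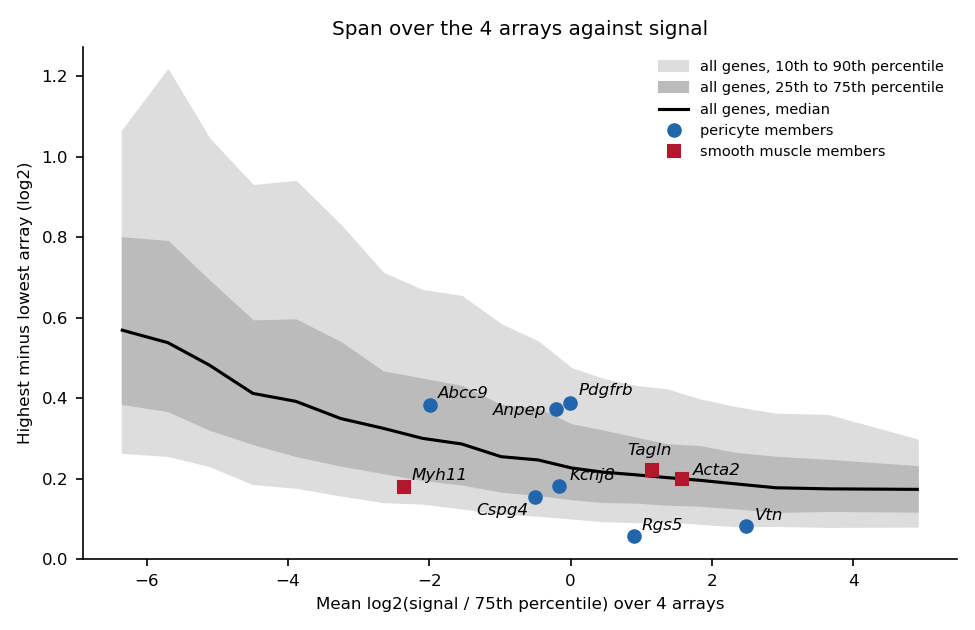
Span over the 4 arrays (highest minus lowest, log2) against mean log2 signal, with the 10 members as points and the range of all genes by signal as grey bands. Rgs5, at 0.06, and Vtn, at 0.08, have the smallest spans of the 10, and Pdgfrb, Anpep and Abcc9 reach 0.37 to 0.39.

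Pdgfrb, the receptor through which endothelial growth factor holds pericytes on the vessel, had levels of 0.836 on the wild-type starch array, 1.09 on wild-type sucrose, 0.970 on heterozygous starch and 1.09 on heterozygous sucrose. It was lowest on the wild-type starch array, and both sucrose arrays were above both starch arrays. The sucrose change was 0.38 in wild-type mice and 0.17 in heterozygotes. Genotype changes were 0.21 on starch and 0.01 on sucrose. Its only probe lies on chromosome 18 at 61244595 to 61244654 (mm9, plus strand), and the span of 0.39 was the widest of the 10 genes.

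Rgs5, a regulator of G-protein signalling that is abundant in brain pericytes, had levels of 1.86, 1.84, 1.82 and 1.89 in the same order of arrays. No array stood apart, and 1.77% of all genes had a smaller span. The probe lies at chr1:171623021-171623080 (mm9, plus strand). Pdgfrb and Rgs5 thus differed in how far they moved, with largest pairwise changes of 0.39 and 0.06.

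Cspg4 encodes a surface proteoglycan of pericytes that oligodendrocyte precursors also carry. Its brightest probe gave 0.663, 0.706, 0.705 and 0.738. The wild-type starch array was lowest, and the widest pairwise change was 0.16. A dimmer probe of the same gene gave 0.0515, 0.0740, 0.0875 and 0.0782. Here the wild-type starch array stood below the other arrays, by 0.52 on the sucrose array, 0.76 on heterozygous starch and 0.60 on heterozygous sucrose. Each of these passed 2 software errors, and none of them reached 2-fold. The third probe was in the dimmest quartile, at 0.0120, 0.0130, 0.0127 and 0.0117. The 3 probes lie on chromosome 9, plus strand (mm9), in the order 56739208 to 56739267 (A_52_P539873), 56743936 to 56743995 (A_55_P2741684) and 56746627 to 56746686 (A_51_P160824, the brightest). The first 30 bases of each are shown because the probes of this gene did not move alike.
A_52_P539873: ggttttccctcatgtctcaggcccaaaata
A_55_P2741684: ccctctctcgagaaaaaagaaaaagtaaat
A_51_P160824: ctgacccagaactattgcagttttgccgga
Of 12 oligodendrocyte precursor genes, 1 was higher and 11 were lower on sucrose in wild-type mice (median -0.09), where all 3 Cspg4 probes were higher. Their part in the Cspg4 values was not tested.

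Anpep, the membrane aminopeptidase N of pericytes, had levels of 0.766, 0.868, 0.993 and 0.839. The heterozygous starch array was highest and the wild-type starch array lowest. Sucrose went with a change of 0.18 in wild-type mice and -0.24 in heterozygotes. By brightest probes, the interaction (heterozygous diet change minus wild-type diet change) of -0.42 was the largest in size of the 10 genes. It did not pass 2 software errors, and dimmer probes of Cspg4 and Acta2 reached -0.68 and -0.53. The genotype change of Anpep was 0.37 on starch and -0.05 on sucrose. The probe lies at chr7:86966716-86966775 (mm9, minus strand).

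Vtn encodes vitronectin, a secreted matrix protein that brain pericytes release. It had levels of 5.77, 5.45, 5.66 and 5.45, with both starch arrays a little above both sucrose arrays. The diet changes were -0.08 and -0.05, and 4.82% of all genes had a smaller span. Its probe runs from 78315393 to 78315665 on chromosome 11 (mm9), a stretch longer than the 60 bases of the probe, so it crosses at least 1 splice junction.

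Kcnj8 and Abcc9 encode the pore and the sulphonylurea receptor subunit of the ATP-sensitive potassium channel of mural cells, and are neighbours on chromosome 6 with 0 protein-coding genes between them. Kcnj8 had levels of 0.846, 0.860, 0.960 and 0.913, and both heterozygous arrays were above both wild-type arrays. Its genotype change was 0.18 on starch and 0.09 on sucrose. Abcc9 had levels of 0.272, 0.213, 0.278 and 0.246, and both sucrose arrays were below both starch arrays. The sucrose change of Abcc9 was -0.35 in wild-type mice and -0.17 in heterozygotes, against 0.02 and -0.07 for Kcnj8. Neither gene changed 2-fold, and the difference between the partners was not tested. The probes lie at chr6:142513920-142513979 for Kcnj8 and chr6:142536920-142536979 for Abcc9 (mm9, minus strand). A second Abcc9 probe was not well above background on any array.

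The list of other ATP-sensitive channel subunits held Kcnj11 and Abcc8, which form the channel of neurons and endocrine cells. Abcc8 had levels of 3.22, 4.75, 3.28 and 4.66 and was higher on both sucrose arrays, with changes of 0.56 in wild-type mice and 0.50 in heterozygotes. Kcnj11 had changes of 0.03 and 0.35. The sulphonylurea receptor of the mural channel and that of the neuronal channel were thus on opposite sides of 0 for diet in both genotypes. Neither Abcc9 change passed 2 software errors, and the contrast was not tested. The pore genes Kcnj8 and Kcnj11 were on the same side in wild-type mice, at 0.02 and 0.03. In heterozygotes they were on opposite sides, at -0.07 and 0.35.

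**Figure D2:**
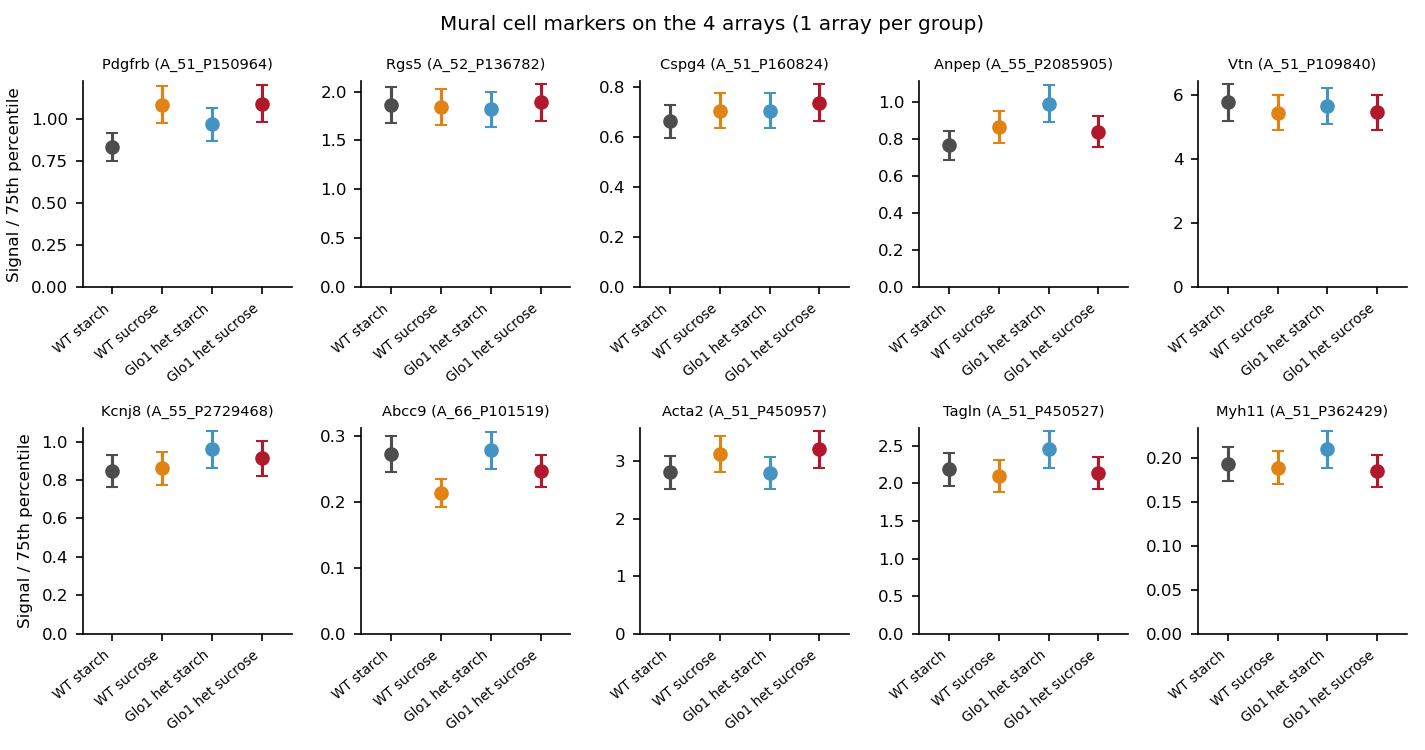
Signal of the brightest probe of each member, as a multiple of the array's 75th percentile, on the 4 arrays, with bars of 1 software error and each axis starting at 0. Levels within a panel differ by at most 1.31-fold, and the bars do not include variation between mice.

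Acta2 encodes alpha smooth muscle actin, the main actin of contractile smooth muscle, and its probes did not move alike. The brightest probe, A_51_P450957, gave 2.81, 3.14, 2.80 and 3.21, with both sucrose arrays above both starch arrays. A probe of almost the same mean signal, A_52_P420504, gave 2.65, 2.81, 3.52 and 2.91, with the heterozygous starch array highest. The third, A_52_P210078, gave 0.104, 0.114, 0.174 and 0.132, again with heterozygous starch highest. On starch the genotype change was therefore -0.01, 0.41 and 0.74 by probe, and the latter pair passed 2 software errors. In heterozygous mice the diet change was 0.20, -0.27 and -0.40. In wild-type mice all 3 probes were higher on sucrose, by 0.09 to 0.16. The gene thus has no settled direction for genotype on starch or for diet in heterozygous mice, since the probes of nearly equal brightness differ in sign.

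The brightest Acta2 probe runs from 34322995 to 34326249 on chromosome 19 (mm9, minus strand), so it crosses at least 1 splice junction. The others lie further along in the direction of transcription, at 34316060 to 34316119 (A_52_P420504) and 34315697 to 34315756 (A_52_P210078). Another probe, at 34327946 to 34328005, was not well above background on any array. Exon and UTR limits in mm9 were not used here. The first 30 bases of the 3 measured probes are shown, since the direction of the gene turns on them.
A_51_P450957: atcatcaccaactgggacgacatggaaaag
A_52_P420504: gttttgtggatcagcgcctccagttccttt
A_52_P210078: acactgacttcacagctagagtgactattt

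Tagln encodes transgelin, an actin-binding protein of smooth muscle. It had levels of 2.19, 2.10, 2.45 and 2.14, and the heterozygous starch array was above the other arrays. The genotype change on starch was 0.17, and the diet change was -0.06 in wild-type mice and -0.20 in heterozygotes. Its probe lies at chr9:45738097-45738156 (mm9, minus strand).

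Myh11, the smooth muscle myosin heavy chain, had 4 measured probes on chromosome 16 (mm9, minus strand), between 14195223 and 14249684. The brightest gave 0.193, 0.189, 0.210 and 0.185, with heterozygous starch highest. The next probe gave 0.108, 0.0965, 0.134 and 0.108, again with heterozygous starch highest. The third was highest on heterozygous sucrose, at 0.0876, 0.0883, 0.0870 and 0.0990. The dimmest gave 0.0371, 0.0379, 0.0419 and 0.0416, with both heterozygous arrays above both wild-type arrays. On starch the genotype change ranged from -0.01 to 0.31 over the probes, and 3 of 4 were higher. On sucrose it ranged from -0.03 to 0.17.

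**Figure D3:**
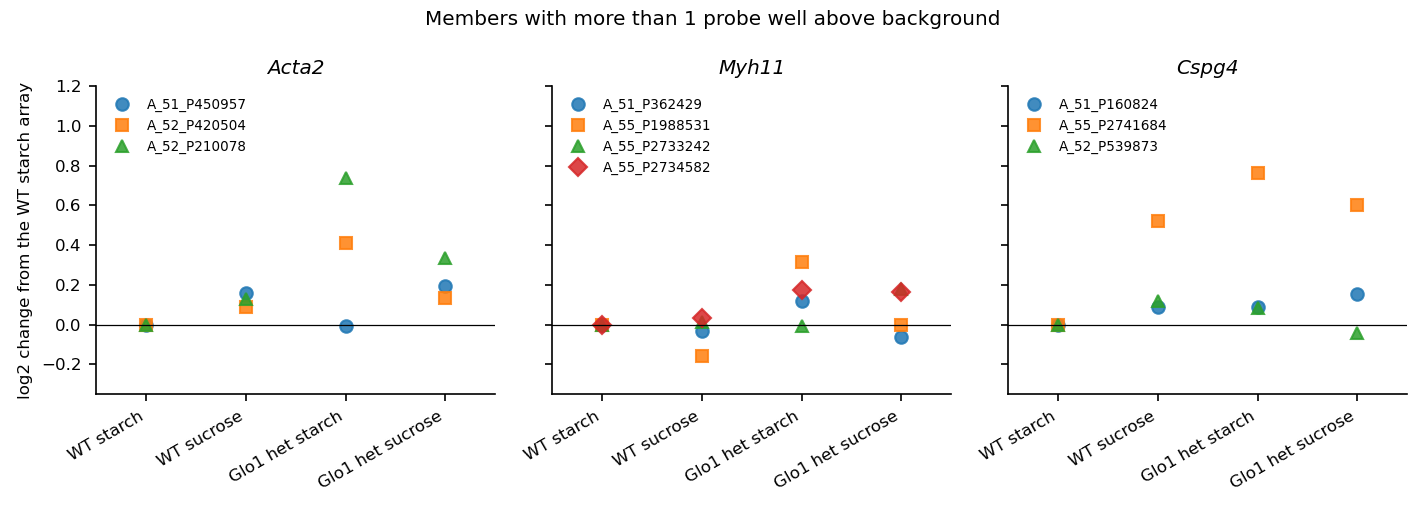
Log2 change from the wild-type starch array for every measured probe of Acta2, Myh11 and Cspg4, 1 symbol per probe. On the heterozygous starch array the Acta2 probes read -0.01, 0.41 and 0.74, and 1 Cspg4 probe reads 0.76 where the other Cspg4 probes read 0.08 and 0.09.

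The promoter of Acta2 is shown because the smooth muscle genes are the classic targets of serum response factor. The sequence is the 250 bases before the RefSeq start of the gene, on the minus strand of chr19:34255374-34255623 in GRCm38.p6, another build than that of the probes. Capitals mark matches to the CArG box that carry 1 substitution. The box was searched as a pair of C, then 6 bases that are each A or T, then a pair of G. It reads the same on both strands, and the matches do not overlap.
Acta2 promoter: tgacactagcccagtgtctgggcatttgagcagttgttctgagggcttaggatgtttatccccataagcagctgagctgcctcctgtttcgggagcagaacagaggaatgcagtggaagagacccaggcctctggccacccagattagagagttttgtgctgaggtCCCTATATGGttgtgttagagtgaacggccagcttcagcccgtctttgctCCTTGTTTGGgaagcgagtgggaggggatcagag
The matches begin 84 and 34 bases before the start. No exact match lay in this window. An exact match was in 535 of 32851 windows from 250 bases before to 50 after a start (1.63%), and a match with up to 1 substitution in 3280 (9.98%). Promoters of 7 members were in the RefSeq table, and those of Pdgfrb, Tagln and Myh11 were not searched. The pericyte members Rgs5, Cspg4, Anpep, Vtn, Kcnj8 and Abcc9 had no match of either kind in the window. A match describes letters only.

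Across the set, sucrose in wild-type mice went with no common direction. Of the 10 genes 5 were higher and 5 lower, from -0.35 for Abcc9 to 0.38 for Pdgfrb, with a median of 0.00 that did not keep its sign over the other ways of processing. None changed 2-fold, where 1.48% of all genes did. The median size of a change was 0.09 for the members and 0.15 for all genes. Blood genes fell past 2-fold for 4 of 6 in the same comparison, with a median of -1.46. Striatal genes were higher for 11 of 11, 5 of them past 2-fold (median 0.88), and cortical excitatory neuron genes for 10 of 10 (median 0.31). Of 11 choroid plexus genes 4 were higher and 1 lower by 2-fold or more. Their part in the member values was not tested.

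Sucrose in heterozygous mice went with 4 genes higher and 6 lower, from -0.24 for Anpep to 0.20 for Acta2, with a median of -0.06 (0.00 for all genes). None changed 2-fold, where 1.77% of all genes did. The median size of a change was 0.17 for the members and 0.11 for all genes, the reverse of the order in wild-type mice. Over the 17 probes 5 were higher and 12 lower. The Acta2 value is that of its brightest probe, and its other measured probes read -0.27 and -0.40. Control genes were lower for 10 of 11, with a median of -0.05. In this comparison 11 of 11 measured choroid plexus genes were higher by 2-fold or more and 5 of 11 striatal genes lower by 2-fold or more. Blood genes were lower for 6 of 6 (median -0.78) and perivascular macrophage genes for 8 of 8 (median -0.35). Their part in the member values was not tested.

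Heterozygous against wild-type mice on starch gave 7 genes higher and 3 lower, from -0.04 for Rgs5 to 0.37 for Anpep. The median was 0.10, against -0.02 for all genes, of which 46.0% were higher. None of the members changed 2-fold, where 0.813% of all genes did. For the members the median size of a change was 0.10, against 0.12 for all genes. Over the probes 13 of 17 were higher. Control genes used for normalisation in other assays went the other way, with 0 of 11 higher and a median of -0.11, and 10 of 11 striatal genes were higher in this comparison, 4 of them past 2-fold. Their part in the member values was not tested.

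On sucrose the same comparison gave 8 genes higher and 2 lower, from -0.05 for Anpep to 0.21 for Abcc9. The median was 0.03, against -0.02 for all genes, of which 45.1% were higher, and it did not keep its sign under every way of processing. None changed 2-fold, where 1.71% of all genes did. For the members the median size of a change was 0.04, against 0.11 for all genes. In this comparison 11 of 11 choroid plexus genes were higher by 2-fold or more (median 4.13), and 11 of 11 striatal genes were lower, 7 of them past 2-fold (median -1.21). Their part in the member values was not tested.

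Heterozygous sucrose against wild-type starch, which changes both factors, gave 6 genes higher and 4 lower, from -0.14 for Abcc9 to 0.39 for Pdgfrb, with a median of 0.07. None changed 2-fold, where 2.0% of all genes did. For the members the median size of a change was 0.12, against 0.16 for all genes. In this comparison 11 of 11 choroid plexus genes were higher by 2-fold or more (median 4.76), 6 of 6 blood genes were lower, 4 of them past 2-fold (median -1.14), and 0 of 11 control genes were higher (median -0.16). Their part in the member values was not tested. The interaction ran from -0.42 for Anpep to 0.18 for Abcc9, with a median of -0.06, and none passed 1 in size, where 2.88% of all genes did. For the interaction 11 of 11 striatal genes were below -1 (median -2.01) and 11 of 11 choroid plexus genes above 1 (median 4.12), and their part in the member values was not tested. These comparisons share arrays and are not independent of each other.

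**Figure D4:**
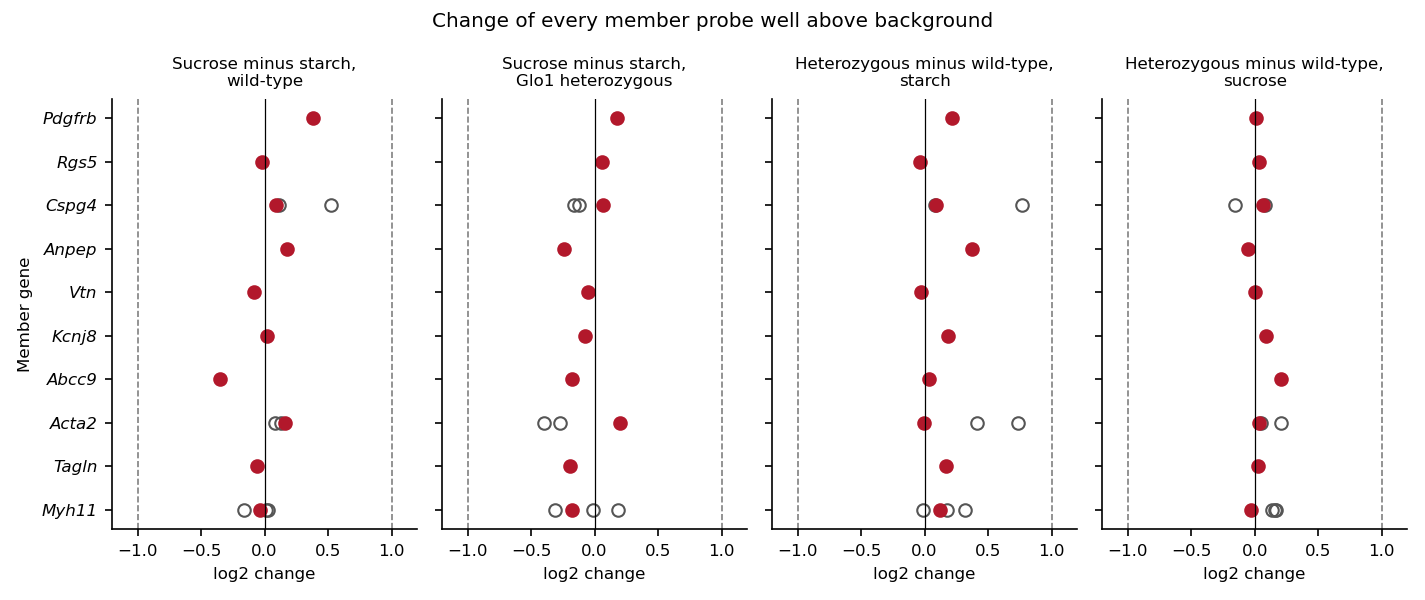
Log2 change of the 17 measured member probes in 4 comparisons, with the brightest probe of a gene filled and the others open, and dashed lines at 2-fold. All points lie inside the lines, with the widest at 0.76 (Cspg4) and 0.74 (Acta2) for genotype on starch.

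By array, the heterozygous starch array was highest for 5 of the 10 genes, heterozygous sucrose for 4, wild-type starch for 1 (Vtn) and wild-type sucrose for 0. Over all genes these shares were 20.2%, 21.7%, 31.4% and 26.6%. Over the 17 probes the counts were 10, 5, 1 and 1. The probes of a gene share their RNA, and the 4 arrays are single samples, so these counts describe the arrays.

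A fit across all probes gave no call. The additive limma model of diet and genotype leaves 1 residual degree of freedom and takes the interaction as error. At a Benjamini-Hochberg adjusted p of 0.05 it called 0% of 42094 probes for diet and 0% for genotype. Without adjustment 3704 probes (8.80%) for diet and 2704 (6.42%) for genotype were under 0.05, and 0 of the 17 member probes for either. The lowest adjusted p of a member probe from limma was 0.587 for diet and 0.733 for genotype. With normexp background correction the same model called 28 probes for diet, and with limma-trend 1, no member among them, while without adjustment 2 of the 17 member probes were under 0.05 for diet and 1 for genotype in each. Over all probes the shares for diet were 10.5% with normexp and 11% with limma-trend, and those for genotype 7.02% and 8.22%. The fit's 95% confidence intervals show its width. The diet effect of Pdgfrb was 0.28 (-0.04 to 0.59), that of Abcc9 -0.26 (-0.57 to 0.04), and the genotype effect of the dimmest measured Acta2 probe 0.47 (-0.02 to 0.96). On simulated data of this design the diet test recovered 0% of 100 probes planted at 2-fold and 0% of 100 planted at 4-fold. The simulated noise used the fit's own residual SDs, each on 1 degree of freedom, so recovery in the real data may differ. The absence of calls still says nothing about whether the genes differ.

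Other genes of mural cells were read from a list. Between 0.813% and 2.0% of all genes changed 2-fold in a pairwise comparison, so a count of 0 in a list of about 20 is near that background. The other ways of processing moved the median of all genes to between -0.06 and 0.03, and these ways were not run on the lists. All 20 other mural genes were measured and none changed 2-fold in any comparison. On starch 14 of 20 were higher in heterozygous mice, with a median of 0.09, from -0.16 for Art3 to 0.22 for Ndufa4l2. On sucrose 12 of 20 were higher, up to 0.35 for Cald1, an actin-binding regulator of contraction. For diet the medians were -0.01 in wild-type mice and -0.05 in heterozygotes.

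Other contractile genes of smooth muscle were measured for 18 of 20, again without a 2-fold change. Several are dim, and dim genes have wider spans. In heterozygous mice 4 were higher and 14 lower on sucrose, with a median of -0.17, from -0.56 for Tes to 0.60 for Sncg. The choroid plexus, striatal, blood and macrophage genes that moved in this comparison, with medians of 4.24, -0.92, -0.78 and -0.35, moved beside these genes, and their part was not tested. On starch 13 were higher and 5 lower in heterozygous mice, from -0.56 for Wtip to 0.67 for Cnn1. In that comparison 10 of 11 striatal, 13 of 18 fibroblast and 0 of 11 control genes were higher, and their part was not tested. Cnn1 encodes calponin, which binds actin in smooth muscle, and had levels of 0.210, 0.225, 0.335 and 0.240. Its heterozygous starch array was above the other arrays. Of the 18 contractile genes 11 were highest on that array and 2, Sncg and Itga8, lowest. Over all genes 20.2% were highest and 25.5% lowest there. Highest there were also 5 of 8 perivascular macrophage, 8 of 20 other mural, 6 of 20 endothelial and 5 of 18 fibroblast genes. Of the 8 measured probes of Acta2, Tagln and Myh11, 6 were highest there and 2 lowest, the brightest Acta2 probe among the latter. These probes stand for 3 genes in the same RNA.

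The serum response factor and myocardin list held 8 genes, all measured. In heterozygous mice 1 was higher and 7 lower on sucrose, with a median of -0.17, beside the same other-tissue genes, whose part was not tested. Myocd, the myocardin gene, was the lowest at -0.69, with levels of 0.0177, 0.0189, 0.0228 and 0.0141. It was highest on heterozygous starch and lowest on heterozygous sucrose. This is a dim probe, and genes of like signal had a median span of 0.54 with an upper quartile of 0.79. In wild-type mice Srf was lowest of the list for diet, at -0.42, with levels of 3.33, 2.49, 2.68 and 2.67. Neurons also express several genes of this list.

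The list of PDGFRB, NOTCH3 and transforming growth factor beta signalling held 22 genes, all measured, and none changed 2-fold. For diet 8 were higher and 14 lower in wild-type mice (median -0.04), and 12 higher and 10 lower in heterozygous mice (median 0.01). Angpt1, a mural ligand of the endothelial receptor TIE2, was the highest in both, at 0.40 and 0.47. It had levels of 0.386, 0.510, 0.369 and 0.513, with both sucrose arrays above both starch arrays. The lowest were Pdgfd at -0.30 in wild-type and S1pr1 at -0.28 in heterozygous mice. For genotype the range was -0.37 for Dll4 to 0.17 for Tek on starch, and -0.22 for Pdgfa to 0.51 for Pdgfd on sucrose.

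Other cells of the vessel wall were read from 3 lists. The 20 endothelial genes had diet medians of -0.02 in wild-type mice and -0.07 in heterozygotes, and genotype medians of 0.03 on starch and 0.01 on sucrose. Ly6c1 was lowest for diet in both genotypes, at -0.67 and -0.39. Of 18 fibroblast genes 13 were higher in heterozygous mice on starch (median 0.14, highest Col1a1 at 0.60) and 14 on sucrose (median 0.07, highest Dcn at 0.95). Their diet medians were 0.03 in wild-type mice and -0.01 in heterozygotes. Dcn, the decorin gene, had levels of 2.78, 2.69, 2.95 and 5.19, so the heterozygous sucrose array, which also held the choroid plexus genes, stood above the other arrays. Perivascular macrophage genes were lower on sucrose for 7 of 8 in wild-type mice (median -0.16) and 8 of 8 in heterozygous mice (median -0.35), with Lyve1 lowest at -0.69 and -0.72. For genotype their median was 0.10 on starch, and on sucrose it was -0.07. Their summed level was 2.88 and 3.12 on the starch arrays and 2.56 and 2.52 on the sucrose arrays, which is the split that the blood genes also showed. None of the endothelial, fibroblast and macrophage genes changed 2-fold in any comparison.

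**Figure D5:**
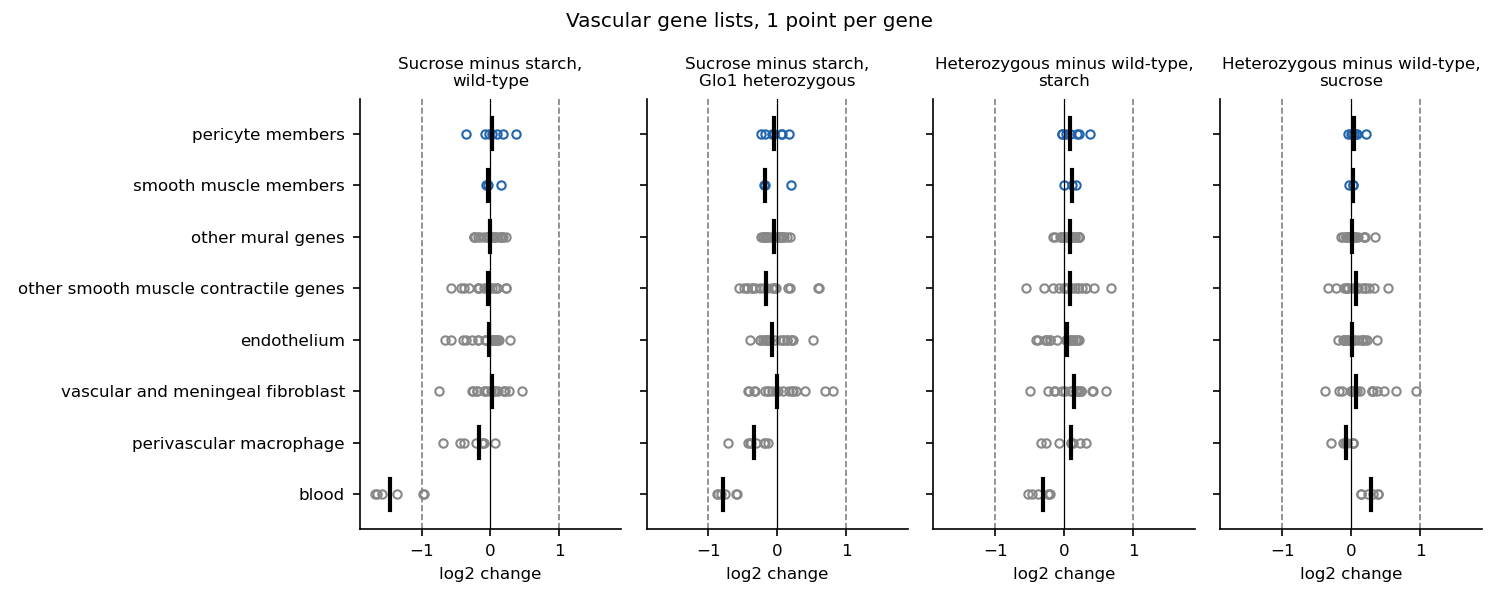
Log2 change of each measured gene in 8 lists for 4 comparisons, with the list median as a black bar and dashed lines at 2-fold. Medians of the member lists lie between -0.18 and 0.12, while the blood genes have diet medians of -1.46 and -0.78.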

How the data were processed

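Prefrontal cortex RNA of mice, 1 pool of 3 mice per group, was measured on 4 one-colour arrays, which were grouped by their labels. The deposited intensity values came from Agilent Feature Extraction 11.5.1.1, per the submitters' processing notes, and the probe coordinates are on mm9, per the file headers. The authors also deposited a table with 1 ratio per spot. Set against the scanner files, it was the processed signal divided by the array's 75th percentile (largest relative deviation 4.54e-07). Its column medians were 0.0755 to 0.0777, it was linear, and it had no centring across arrays.

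From the scanner files, log2 of the processed signal minus that of the 75th percentile over non-control spots was taken. Control and outlier spots were left out and spots of a probe averaged. Comparisons used probes well above background on all 4 arrays, and the brightest probe stood for a gene. The additive fit used limma 3.58.1 with Benjamini-Hochberg adjustment and was tested on simulated data. CArG boxes were searched in the RefSeq promoter table of GRCm38.p6. A further 11 ways of processing were tried. With 4 arrays, their number limits the precision.

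The 10 genes and all lists were chosen with earlier results of these data known. Named genes were the members, Glo1, and the highest or lowest gene of a list in a comparison described. Itga8 was also named, as a contractile gene that was lowest on the heterozygous starch array. Other values of these genes are given where a group is described. No member spanned 1 or more, so no genes of like pattern were sought. Lmod1 and Map3k7cl were not well above background on all arrays. The astrocyte and microglia lists are summarised in the closing section.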

Additional observations from a re-analysis of the deposited data

Results flagged for a closer look

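By their brightest probes, 3 of the 10 genes had diet changes of opposite sign in the genotypes, where 39.7% of all genes had, and this difference between genotypes was not tested, since each group had 1 array. For Anpep the log2 change with sucrose was 0.18 in wild-type mice and -0.24 in heterozygotes, a difference of -0.42. For Kcnj8 the changes were 0.02 and -0.07, a difference of -0.10. For Rgs5 they were -0.02 and 0.06, a difference of 0.07. With the mean over the probes of a gene, opposite signs were also seen for Acta2 (0.12 and -0.16) and Cspg4 (0.24 and -0.07).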

How the results depend on the processing

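No paired analysis was possible because each group had 1 array and replicate numbers give no block, and leaving out a replicate was not possible for the same reason. The count of members past 2-fold, and the calls of the additive fit among them, stayed at 0 in all 74 recomputed counts, and the largest change of a member gene under any setting with 1 value per gene was 0.453 in size. Single probes reached 0.76 (Cspg4) and 0.74 (Acta2). Of 60 gene changes (10 genes, 5 comparisons and the interaction), 44 kept their sign under every alternative that gave 1 value per gene. That leaves out the counting of each probe by itself and, for Myh11, the restriction to bright probes. The median genotype change on starch stayed positive, at 0.09 to 0.17, and the highest value, 0.173, came with the mean over all measured probes of a gene. The median interaction stayed negative, at -0.14 to -0.03, and was lowest, at -0.139, when each probe was counted by itself, which gives Myh11, Acta2 and Cspg4 more weight. The median for diet in heterozygous mice kept its sign (-0.12 to -0.05), as did that for both factors (0.02 to 0.13). Those for diet in wild-type mice (-0.01 to 0.03) and for genotype on sucrose (-0.01 to 0.06) did not. With normexp the Acta2 genotype change on starch was 0.42 and its diet change in heterozygous mice -0.27, since another probe became the brightest. The precision is limited by 1 array per group, and dim probes carry wider errors.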

Other observations

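Glial genes were read from lists of their own. Of 10 microglial genes 1 was higher and 9 lower in heterozygous mice on either diet, with medians of -0.11 on starch and -0.07 on sucrose. Control genes moved the same way, with 0 of 11 higher on starch (median -0.11) and 3 of 11 on sucrose (median -0.06). Of all genes 46.0% were higher on starch and 45.1% on sucrose. C1qa, a complement subunit of microglia, was the lowest microglial gene on starch at -0.66. Astrocyte genes had medians of 0.01 on starch and 0.00 on sucrose for genotype. Gfap, the intermediate filament of astrocytes, had a genotype change of 1.16 on sucrose, past 2-fold, and diet changes of -0.68 in wild-type mice and 0.35 in heterozygotes. Among oligodendrocyte precursor genes Matn4, which encodes a matrix protein, had levels of 0.443 on wild-type starch, 0.213 on wild-type sucrose, 0.211 on heterozygous starch and 0.217 on heterozygous sucrose. The wild-type starch array stood above the other arrays, with a diet change of -1.06 in wild-type mice and a genotype change of -1.07 on starch. These are differences of single arrays.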
